A study of Mus musculus with 6 samples.

Results

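The 8 genes described here take part in type I interferon signalling or in the steps before and after it. They are receptor chains Ifnar1 and Ifnar2, kinases Jak1 and Tyk2, transcription factor Stat2, and interferon regulatory factors Irf1, Irf3 and Irf9. They were matched by gene symbol, with no threshold on their values, in a table of 14515 genes, and each symbol matched 1 row. All 8 were among the 14077 genes that reached a scaled count of 10 in at least 2 libraries and were tested. The table comes from 6 RNA libraries of mouse cells labelled as muscle satellite cells. There were 2 each labelled wt (wild type), mdx (a dystrophin mutant, used as a model of Duchenne muscular dystrophy) and mdx/Ripk3mKO. The last is the same dystrophy with a Ripk3 change whose abbreviation the labels do not explain. The sample labels call the cells quiescent satellite cells that were sorted and processed at once, whereas the series text tells of wild-type cells kept for 72 hours beneath a transwell insert with cells of the 3 genotypes, so the genotype may be that of neighbouring cells. No age, sex or number of animals per library is given in the sources used here, and where both libraries of a group share a culture or animal the p-values measure technical spread only.

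Interferons of type I bind a receptor made of the IFNAR1 and IFNAR2 chains, which hold the kinases TYK2 and JAK1. These kinases phosphorylate STAT2, which joins IRF9 in a complex that binds the interferon-stimulated response element (ISRE) of antiviral genes. IRF3 acts upstream, where nucleic acid sensors and the kinase TBK1 activate it to switch on interferon genes. IRF1 is itself induced by interferon through a gamma-activated site (GAS) and in turn activates antigen presentation and other target genes. Nucleic acids released from damaged cells are a known trigger of the sensing arm.

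No difference between groups was called for any of the 8 genes. With limma's moderated test and Benjamini-Hochberg adjustment over all 14077 genes at 0.05, 0 of 8 passed between mdx and wt, where 0.0071% of all genes did. For mdx/Ripk3mKO against mdx it was 0 of 8, against 0.206% of all genes (0.0852% higher and 0.121% lower), and for mdx/Ripk3mKO against wt 0 of 8, against 0% of all genes. At an unadjusted p under 0.05 the count was also 0 of 8 in each comparison, where the share of all genes was 6.46%, 11.6% and 3.32% in the same order. The F-test over the 3 genotypes called none of the 8 (limma, adjusted p from 0.804 to 0.977), against 0.0781% of all genes. All 24 intervals of difference (95%, 8 genes in 3 comparisons) included 0, and all 24 lay inside a 1.5-fold change in either direction.

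Scaled counts summed to between 20611974 and 21037153 per library, totals that the scaling itself brought together. The scaling divisors, estimated from whole numbers that the rounding skipped or doubled, ran from 0.87 to 1.21, with both mdx/Ripk3mKO libraries the deepest. Ripk3, the gene named in the labels, read 45 and 32 (wt), 23 and 36 (mdx) and 17 and 33 (mdx/Ripk3mKO), so it did not separate the groups and gives no check of the labels. Library 1 of mdx/Ripk3mKO stood apart in sex-linked transcripts, with Xist at 6918 against 164 to 666 elsewhere. Myog, which drives muscle differentiation, lay between 1300 and 1698 CPM (scaled counts per 1000000 of the library total), and the satellite cell factor Pax7 between 84.6 and 103 CPM. Summed levels lay between 13405 and 17015 CPM for 8 of 8 genes listed for differentiating muscle. That list also holds Myod1 and the proliferation gene Mki67, which are not particular to differentiation. For 7 of 8 satellite cell markers they lay between 1490 and 1581 CPM. In every library Myog was thus above Pax7, and the differentiating muscle sum above the satellite cell sum. The sums are over different genes, so which is higher does not by itself tell the state of the cells. The Myog values are at odds with the label of quiescent cells, and the state of the cells was not tested. Of other cell types, 6 of 16 macrophage markers had a row, summing to 31.7 and 31.8 CPM (wt), 24.0 and 24.1 CPM (mdx) and 26.4 and 33.0 CPM (mdx/Ripk3mKO). The macrophage markers Adgre1, Csf1r and C1qa had no row. Endothelial markers (5 of 8) summed to 4.19 to 4.30 CPM in wt, 4.08 to 4.99 in mdx and 3.52 to 3.61 in mdx/Ripk3mKO. The macrophage sum was thus lower in mdx than in wt, and the endothelial sum lower in mdx/Ripk3mKO than in the other 4 libraries, without overlap, and their part in the results was not tested. Fibro-adipogenic markers (3 of 7) summed to 2.70 to 3.93 CPM and lymphocyte ones (1 of 14) to 0.285 to 0.582. In such bulk samples fewer cells of a type and less RNA per cell cannot be told apart.

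**Figure D1:**
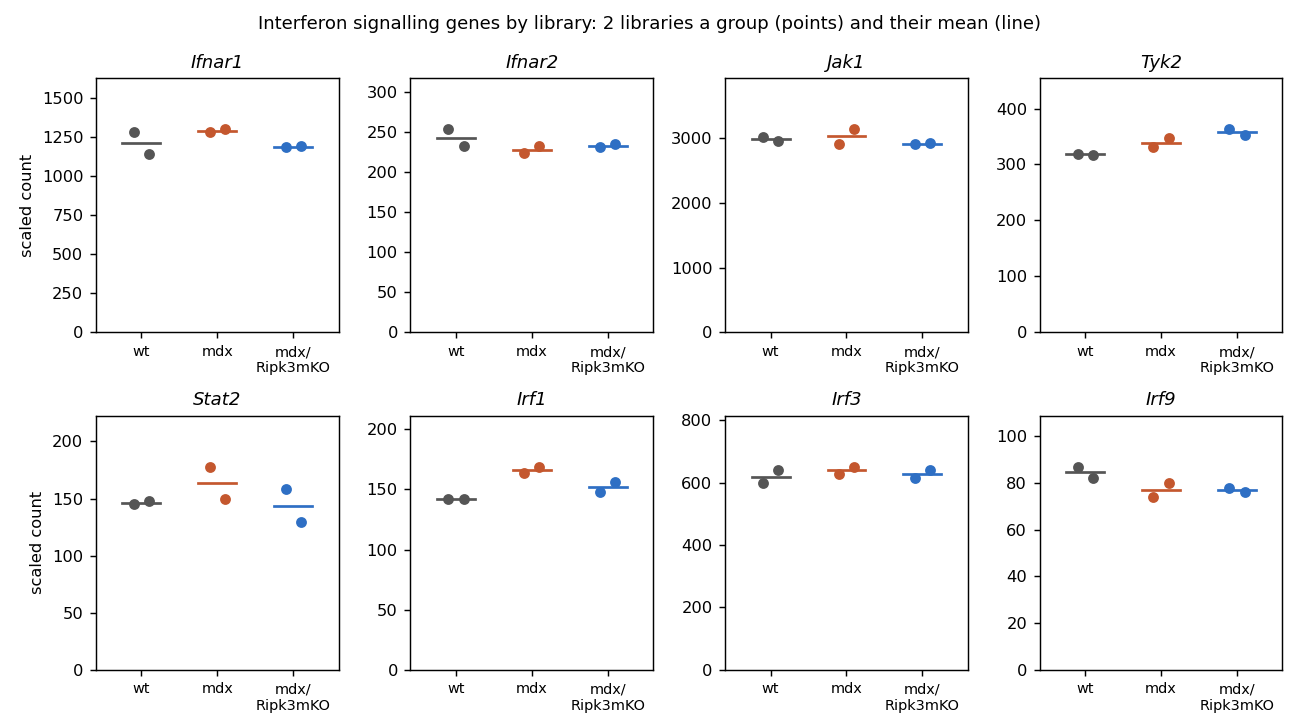
Scaled counts (vertical axis, from 0) of the 8 interferon signalling genes in the 2 libraries of each group (points) with the group mean (line). Levels stay within a narrow band in every panel, and Stat2, between 129 and 178, has the widest spread for its level.

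The promoters of 3 of the 8 genes held a match to the core of an interferon or STAT site wholly before the start of transcription, and these are shown because they are the letters through which the pathway could act on its own components. Promoters came from RefSeq (GRCm38.p6, the same assembly as mm10), which gave 10 windows for the 8 genes, each from 250 bases before to 50 after a start. The ISRE core was searched on both strands as GAAA, 2 bases of any kind and GAAA again, and the GAS core as TTCNNNGAA, which reads the same on both strands. No window held both cores, so matches of the 2 kinds did not overlap. Each sequence below is written 5′ to 3′ along the gene's own strand, with the matched core in capitals and up to 60 bases on each side.
Irf1 (+ strand, chr11:53769864-53769992, GAS core beginning 90 bases before the start): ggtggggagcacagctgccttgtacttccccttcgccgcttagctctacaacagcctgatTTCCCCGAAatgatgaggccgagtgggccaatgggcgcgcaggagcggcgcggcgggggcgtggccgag
Ifnar2 (+ strand, chr16:91372533-91372637, GAS core beginning 214 bases before the start): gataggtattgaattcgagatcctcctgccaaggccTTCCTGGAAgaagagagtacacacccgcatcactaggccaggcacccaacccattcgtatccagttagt
Stat2 (+ strand, chr10:128270248-128270345, ISRE core beginning 222 bases before the start): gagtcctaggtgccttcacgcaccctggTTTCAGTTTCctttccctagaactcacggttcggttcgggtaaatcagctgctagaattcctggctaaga
A further GAS core in Ifnar1 (chr16:91485210-91485218) began 5 bases before its RefSeq start and ran past it. It lay before the gene start given below, so the count of 3 depends on the start used. Jak1, Tyk2, Irf3 and Irf9 had neither core in their windows, which says only that these letters were not there. Of 32817 mouse promoter windows of the same length 3.43% held the ISRE core and 8.29% the GAS core, anywhere in the window. Counted anywhere in a window, 1 of the 8 genes held the ISRE core and 3 the GAS core. Such a match is a description of the letters and not evidence that a factor bound.

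Compared per length of exon, the 8 genes spanned a wide range, from Jak1 at the top to Irf9 at the bottom. The quantity is the scaled count per kilobase of exon per 1000000 of the library total, and its median over all genes was 4.39. Exon length came from GENCODE M21, with the exons of all transcripts of a gene merged. Jak1 stood at 19.8 ± 0.72 (SD over 6 libraries, from 19.1 to 21.1), higher than 82.8% of genes in the table. Ifnar1 followed at 9.97 ± 0.54 and Irf3 at 8.79 ± 0.32. Below the median of all genes came Ifnar2 at 3.39 ± 0.16, Tyk2 at 2.37 ± 0.13, Irf1 at 1.86 ± 0.14, Stat2 at 1.23 ± 0.12 and Irf9 at 0.709 ± 0.045. The 6 libraries of each gene did not overlap with those of the next in this order, at any of the 7 steps, so the order held in all libraries. All libraries share the same length for a gene, so this says nothing of error in the lengths. A merged length counts exons of transcripts that the cells may not make, which would lower the level. For Irf9 it was 5386 bases, and which transcripts were made was not tested.

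**Figure D2:**
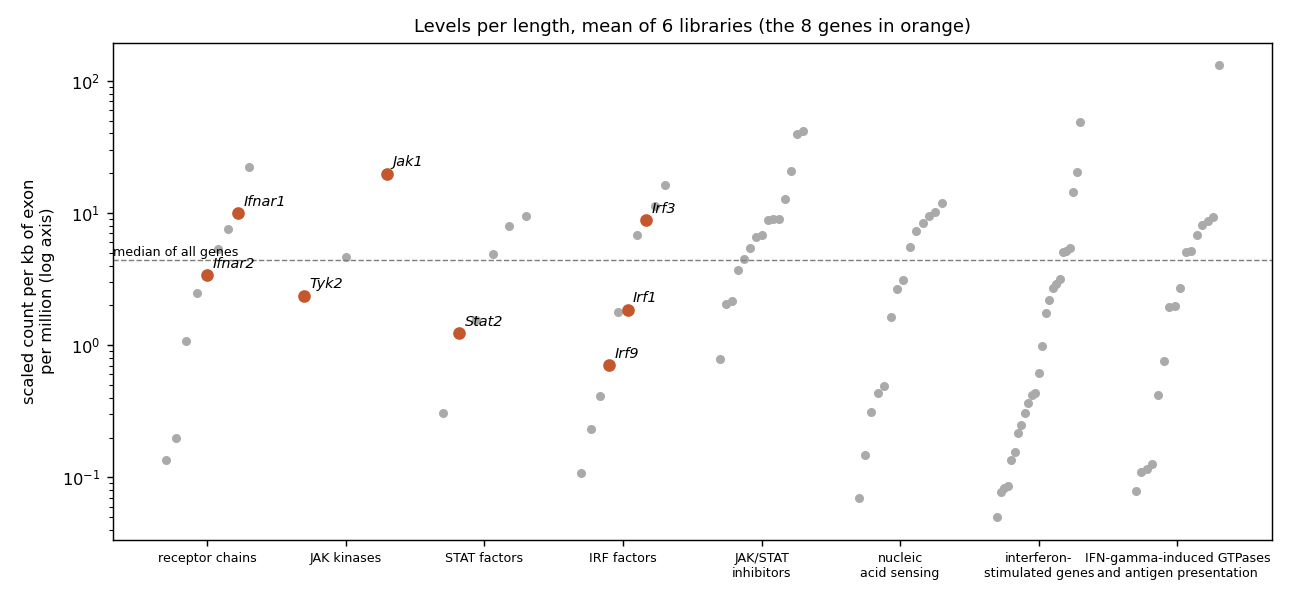
Mean level over 6 libraries (scaled count per kilobase of exon per 1000000 of the library total, log axis) of each listed pathway gene, sorted within its list along the horizontal axis, with the 8 genes in orange and the median of all genes as a dashed line. Jak1 stands at 19.8 and Irf9 at 0.709, with Jak1, Ifnar1 and Irf3 above the line.

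The ratio of levels between partners in the pathway was taken in each library. Per length, Ifnar1 exceeded Ifnar2 by 2.84 and 2.75 times (wt), 3.21 and 3.13 times (mdx) and 2.86 and 2.84 times (mdx/Ripk3mKO). The mdx libraries thus held the higher ratios. For the kinases, Jak1 exceeded Tyk2 by 8.98 and 8.87 times (wt), 8.38 and 8.60 times (mdx) and 7.61 and 7.92 times (mdx/Ripk3mKO), with no overlap between the groups. These ratios have no test of their own and are given as descriptions. The share of gene pairs with ratios apart in this way was not computed. Among single genes, 7.43% had no overlap between any 2 groups. Stat2 exceeded Irf9, its partner in the ISRE-binding complex, by 1.51 to 2.19 times. Irf3 exceeded Irf1 by 4.86 and 5.22 times (wt), 4.42 and 4.46 times (mdx) and 4.81 and 4.75 times (mdx/Ripk3mKO). This ratio, like that of the kinases, had no overlap between the groups. Tyk2 and Irf1, by which these ratios divide, each had no overlap between any groups on their own. The ratios are thus not a separate result. Irf3 exceeded Irf9 by 10.8 to 13.3 times. The size of every ratio depends on the merged exon lengths used.

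Within their own families the 8 genes held different places. Among 9 receptor chains of interferon and related cytokines with a row, Ifnar1 ranked 2 per length, after Il6st, the shared chain of interleukin-6 type receptors (22.1 ± 0.34), and Ifnar2 ranked 5, below both interferon-gamma receptor chains, Ifngr1 (7.57 ± 0.31) and Ifngr2 (5.32 ± 0.25). Of 3 JAK kinases with a row, Jak1 ranked 1, Jak2 stood at 4.61 ± 0.21 and Tyk2 ranked 3. Stat2 ranked 5 of 6 STAT factors, below Stat6 (9.41 ± 0.53) and Stat3 (8.02 ± 0.33). Leaving aside the IRF2-binding cofactors in the list, Irf3 was the highest interferon regulatory factor per length, and Irf1 lay beside Irf2 (1.79 ± 0.10), whose 6 libraries overlapped with its own. Irf7, which amplifies interferon production once induced, was at 0.232 ± 0.065 and Irf5 at 0.414 ± 0.053.

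The receptor chains lie close together on chromosome 16. Ifnar1 (ENSMUSG00000022967, mm10 chr16:91485238-91507441, + strand) had scaled counts of 1286 and 1145 (wt), 1284 and 1301 (mdx) and 1186 and 1191 (mdx/Ripk3mKO). The wt libraries reached across both mdx/Ripk3mKO libraries, and mdx lay above mdx/Ripk3mKO without overlap. The log2 difference was 0.09 ± 0.07 (moderated SE) between mdx and wt (95% interval -0.05 to 0.24, limma, adjusted p = 0.854). It was -0.12 ± 0.07 in mdx/Ripk3mKO against mdx (-0.27 to 0.02, adjusted p = 0.517). For mdx/Ripk3mKO against wt it was -0.03 ± 0.07 (adjusted p = 1). With each library left out in turn, the value in mdx against wt ran from 0.00724 to 0.175.

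Ifnar2 (ENSMUSG00000022971, chr16:91372783-91405589, + strand), the chain that docks the STAT factors, had 254 and 233 (wt), 224 and 233 (mdx) and 232 and 235 (mdx/Ripk3mKO). Only wt library 1 stood above the others, and every pair of groups overlapped. Its log2 difference was -0.09 ± 0.11 in mdx against wt (-0.32 to 0.14, limma, adjusted p = 0.929), 0.03 ± 0.11 in mdx/Ripk3mKO against mdx (adjusted p = 0.946) and -0.06 ± 0.11 in mdx/Ripk3mKO against wt (adjusted p = 1). The gene shares 315 bases of exon with Gm21970, a neighbouring gene model on the same strand, and reads there could belong to either.

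The receptor-bound kinases differed in the width of their intervals. Jak1 (ENSMUSG00000028530, chr4:101152367-101265282, - strand), which serves interferon and many interleukin receptors, had scaled counts of 3015 and 2961 (wt), 2919 and 3143 (mdx) and 2907 and 2936 (mdx/Ripk3mKO). The mdx libraries enclosed both wt libraries, and mdx/Ripk3mKO lay below wt by a small margin. In mdx against wt the log2 difference was 0.02 ± 0.06 (-0.10 to 0.14, limma, adjusted p = 0.975), in mdx/Ripk3mKO against mdx -0.05 ± 0.06 (-0.17 to 0.07, adjusted p = 0.773), and in mdx/Ripk3mKO against wt -0.03 ± 0.06 (-0.15 to 0.09, adjusted p = 1). Its 3 intervals were the narrowest among the 8 genes, and its scaled counts were the highest.

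Tyk2 (ENSMUSG00000032175, chr9:21104069-21131243, - strand), the kinase bound to IFNAR1, had 319 and 317 (wt), 331 and 347 (mdx) and 363 and 352 (mdx/Ripk3mKO). No 2 groups overlapped, with wt lowest and mdx/Ripk3mKO highest. The differences were 0.09 ± 0.09 on the log2 scale in mdx against wt (-0.11 to 0.29, limma, adjusted p = 0.899), 0.08 ± 0.09 in mdx/Ripk3mKO against mdx (adjusted p = 0.812) and 0.17 ± 0.09 in mdx/Ripk3mKO against wt (-0.03 to 0.37, unadjusted p = 0.0884, adjusted p = 1). That unadjusted p was the smallest of the 24. Tyk2 shares 554 bases of exon with the antisense gene 1700084C06Rik, and because no source used here says whether counting used strand, their reads cannot be told apart.

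Stat2 (ENSMUSG00000040033, chr10:128270576-128292849, + strand), the signal carrier particular to type I and type III interferon receptors in textbook accounts, had the largest relative spread of the 8. Its scaled counts were 145 and 148 (wt), 178 and 150 (mdx) and 158 and 129 (mdx/Ripk3mKO). Both wt libraries lay below both mdx libraries, whereas mdx/Ripk3mKO overlapped with each of the other groups. The log2 difference in mdx against wt was 0.16 ± 0.15 (-0.16 to 0.47, limma, adjusted p = 0.89), and in mdx/Ripk3mKO against mdx it was -0.19 ± 0.15 (-0.51 to 0.12, adjusted p = 0.666). Against wt, mdx/Ripk3mKO stood at -0.04 ± 0.15 (adjusted p = 1). With each library left out in turn, Stat2 ran from 0.0339 to 0.279 in mdx against wt and from -0.339 to -0.0482 in mdx/Ripk3mKO against mdx.

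Of the interferon regulatory factors, Irf1 (ENSMUSG00000018899, chr11:53770014-53778374, + strand), the tumour suppressor and interferon target whose GAS core is shown above, had 142 and 142 (wt), 164 and 169 (mdx) and 148 and 156 (mdx/Ripk3mKO). The groups lay apart, with wt lowest, mdx highest and mdx/Ripk3mKO between them. In mdx against wt the log2 difference was 0.23 ± 0.13 (-0.05 to 0.50, limma, adjusted p = 0.815), the largest of the 24 and not past the threshold. It was -0.13 ± 0.13 in mdx/Ripk3mKO against mdx (-0.41 to 0.15, adjusted p = 0.751) and 0.10 ± 0.13 in mdx/Ripk3mKO against wt (adjusted p = 1). Irf1 shares 135 bases of exon with Gm17334 on the opposite strand.

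Irf3 (ENSMUSG00000003184, chr7:44997648-45002848, + strand), the factor activated by nucleic acid sensing, had 598 and 642 (wt), 628 and 652 (mdx) and 616 and 641 (mdx/Ripk3mKO). Every pair of groups overlapped. The log2 differences were 0.05 ± 0.08 (-0.12 to 0.21, limma, adjusted p = 0.95), -0.03 ± 0.08 (-0.19 to 0.14, adjusted p = 0.931) and 0.02 ± 0.08 (-0.14 to 0.18, adjusted p = 1) for mdx against wt, mdx/Ripk3mKO against mdx and mdx/Ripk3mKO against wt. Irf3 starts head to head with Bcl2l12 on the opposite strand and shares 88 bases of exon with it.

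Irf9 (ENSMUSG00000002325, chr14:55603571-55610030, + strand), the DNA-binding partner of STAT2, had the lowest scaled counts of the 8, at 87 and 82 (wt), 74 and 80 (mdx) and 78 and 76 (mdx/Ripk3mKO). Both wt libraries were above the other 4, which overlapped with each other. The log2 difference was -0.13 ± 0.17 in mdx against wt (-0.50 to 0.24, limma, adjusted p = 0.939), 0.00 ± 0.17 in mdx/Ripk3mKO against mdx (-0.37 to 0.37, adjusted p = 1) and -0.13 ± 0.17 in mdx/Ripk3mKO against wt (-0.50 to 0.24, adjusted p = 1). Irf9 shares 123 bases of exon with the end of Rnf31, a ubiquitin ligase gene directly before it on the same strand.

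**Figure D3:**
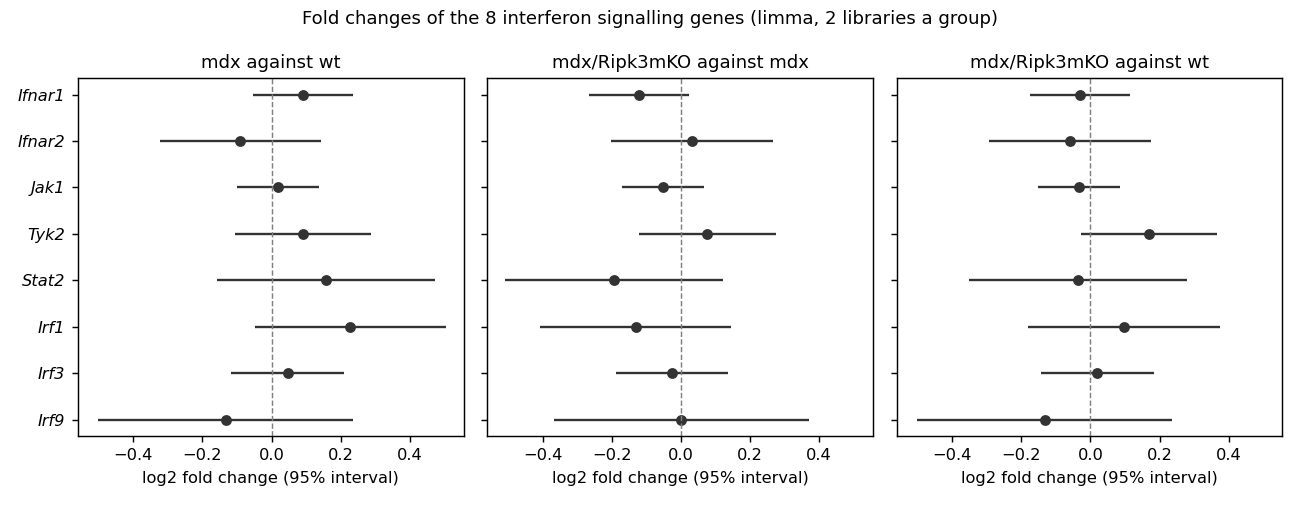
Log2 fold change (horizontal axis) with its 95% interval for each of the 8 genes in the 3 comparisons, from limma on 2 libraries a group. All 24 intervals cross 0, with bounds from -0.51 to 0.505.

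The median log2 difference of the 8 genes was 0.07 in mdx against wt, -0.04 in mdx/Ripk3mKO against mdx and -0.03 in mdx/Ripk3mKO against wt, where the median of all genes was 0.00 in each. The median of the absolute differences was 0.09, 0.06 and 0.05, against 0.08, 0.10 and 0.07 for all genes tested and 0.0642, 0.0783 and 0.0541 for those with a mean of at least 50. Between mdx and wt 6 of 8 were higher and 2 lower, and 4 of 8 had libraries that did not overlap, against 35.9% of all genes. Of these, Tyk2, Stat2 and Irf1 lay above wt, where 17.6% of all genes did, and Irf9 below it, where 18.3% did. Between mdx/Ripk3mKO and mdx 3 were higher and 5 lower, with 3 of 8 apart against 41.3%. Tyk2 lay above mdx, where 21% of all genes did, and Ifnar1 and Irf1 below it, where 20.3% did. Between mdx/Ripk3mKO and wt 3 were higher and 5 lower, with 4 of 8 apart against 29.4% (14.4% above and 15.1% below), Tyk2 and Irf1 above wt and Jak1 and Irf9 below it. Tyk2 and Irf1 were the 2 of 8 genes with no overlap between any 2 groups, a state found in 7.43% of all genes. The comparisons share libraries, so their values are not independent of each other.

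Replicate libraries agreed closely for most of the 8 genes. The difference between both libraries of a group was set against the SD that counting alone gives, computed from the scaled counts and the estimated divisors, which cover counting error only. It was under 1 such SD in 19 of 24 gene and group pairs and under 2 in 22 of 24. The 2 larger ones were Ifnar1 in wt, at 0.17 on the log2 scale against a counting SD of 0.062, and Jak1 in mdx, at 0.11 against 0.038. Counting SDs of such a difference ran from 0.034 for Jak1 to 0.24 for Irf9, so for Stat2, Irf1 and Irf9 a small difference was not detectable at this depth. With 2 libraries against 2 an exact permutation test of 1 gene cannot go below p = 0.333.

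The gene most like each of the 8 over the 6 libraries was found by Pearson's r of the log2 values among 9738 other genes whose scaled counts averaged 100 or more. These were Gtf3c3 for Ifnar1 (r = 0.985), Diaph1 for Ifnar2 (0.978), Uba2 for Jak1 (0.995), Naxe for Tyk2 (0.985), Mlycd for Stat2 (0.995), Gpatch2 for Irf1 (0.992), Jrkl for Irf3 (0.983) and Lin52 for Irf9 (0.994). Naxe, for example, read 489 and 479 (wt), 523 and 539 (mdx) and 573 and 558 (mdx/Ripk3mKO), the order seen in Tyk2. Between 8 and 46 genes exceeded r = 0.95 for each of the 8, the points share depth and scaling, and the likeness is a description over 6 libraries only.

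Beyond the 8 genes, 90 other genes of the pathway were tested, from lists of receptor chains, kinases, STAT and interferon regulatory factors, inhibitors, nucleic acid sensing and interferon-stimulated genes. None of the 90 passed in any comparison (limma, smallest adjusted p = 0.586, 0.0827 and 1 for mdx against wt, mdx/Ripk3mKO against mdx and mdx/Ripk3mKO against wt). At an unadjusted p under 0.05 there were 6, 11 and 1 of 90, or 6.67%, 12.2% and 1.11%, where the shares of all genes were 6.46%, 11.6% and 3.32%. In mdx against wt 46 were higher and 44 lower, with a median log2 difference of 0.00, and in mdx/Ripk3mKO against mdx 45 were higher and 45 lower, also with a median of 0.00. In mdx/Ripk3mKO against wt 47 were higher and 43 lower, at a median of 0.01. The medians of the single lists, with the 8 genes included, lay between -0.09 and 0.09, and those of several lists changed sign when 1 library was left out.

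Upstream of Irf3, no gene of the sensing machinery that was tested had a called difference. Of 16 sensing genes searched for, 14 had a row, and Dhx58 and Zbp1, which had none, were not analysed here. Of 14 sensing genes tested, 6 were higher and 8 lower in mdx against wt (median -0.04), 5 and 9 in mdx/Ripk3mKO against mdx (median -0.07), and 3 and 11 in mdx/Ripk3mKO against wt (median -0.03). Per length the kinase Tbk1, which phosphorylates IRF3, stood at 11.8 and the adaptor Mavs at 10.1, whereas the RNA sensors Ddx58 and Ifih1 stood at 0.311 and 0.148. The related kinase Ikbke was scarce, with scaled counts of 10 and 7 (wt), 17 and 24 (mdx) and 13 and 7 (mdx/Ripk3mKO). The mdx libraries were above the other 4, with an adjusted p of 0.651 against wt and of 0.398 against mdx/Ripk3mKO (limma). Of all genes, 17.6% had mdx above wt without overlap and 20.3% had mdx above mdx/Ripk3mKO. Ikbke was picked by its small p, which favours such separation. Tlr3, a receptor of double-stranded RNA, was at -0.40 ± 0.21 in mdx against wt (adjusted p = 0.81) and the RNA sensor Ifih1 at -0.61 ± 0.31 in mdx/Ripk3mKO against mdx (adjusted p = 0.478). None of the 11 interferon ligand genes searched for had a row, and they were not analysed here.

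At the receptor and STAT level the unadjusted differences lay outside the type I interferon chains. Lifr, the receptor of leukaemia inhibitory factor, had 508 and 546 (wt), 642 and 606 (mdx) and 504 and 513 (mdx/Ripk3mKO). The mdx libraries were above the other 4. Of all genes, 17.6% had mdx above wt without overlap and 20.3% had mdx above mdx/Ripk3mKO. Lifr was picked by its small p. Its log2 difference was 0.24 ± 0.08 in mdx against wt (limma, adjusted p = 0.586) and -0.29 ± 0.08 in mdx/Ripk3mKO against mdx (adjusted p = 0.163). The interleukin-6 receptor Il6ra was at 0.55 ± 0.25 in mdx against wt (adjusted p = 0.768) and the oncostatin M receptor Osmr at -0.57 ± 0.26 in mdx/Ripk3mKO against mdx (adjusted p = 0.417). Of 9 receptor chains 6 were higher and 3 lower in mdx than in wt (median 0.09), and 3 and 6 in mdx/Ripk3mKO against mdx (median -0.09). With a minimum of 50 these medians were 0.03 and -0.02, and without wt library 2 the first was 0.02. The 3 JAK kinases were all higher in mdx than in wt (median 0.09), and 1 was higher and 2 lower in mdx/Ripk3mKO against mdx (median -0.05). Jak2 was at 0.11 ± 0.08 in mdx against wt (adjusted p = 0.85). Of 6 STAT factors 3 were higher and 3 lower in both of these comparisons, and 1 and 5 in mdx/Ripk3mKO against wt (median -0.04). Stat5b and Stat5a, which serve growth hormone and several cytokines, were at -0.17 ± 0.08 (adjusted p = 0.417) and 0.14 ± 0.11 (adjusted p = 0.671) in mdx/Ripk3mKO against mdx.

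The corepressor Irf2bp1, a binding partner of IRF2, was the IRF-related gene with the smallest p. It read 674 and 655 (wt), 551 and 588 (mdx) and 682 and 675 (mdx/Ripk3mKO), with mdx below the other 4 libraries. Of all genes, 18.3% had mdx below wt without overlap and 21% had mdx below mdx/Ripk3mKO. Irf2bp1 was picked by its small p. Its log2 difference was -0.22 ± 0.07 in mdx against wt (limma, adjusted p = 0.586) and 0.25 ± 0.07 in mdx/Ripk3mKO against mdx (adjusted p = 0.205). Irf2, which competes with IRF1 for its sites, was at 0.07 ± 0.10 in mdx against wt (adjusted p = 0.943) and 0.13 ± 0.10 in mdx/Ripk3mKO against wt (adjusted p = 1). Of 10 genes of the IRF list 4 were higher and 6 lower in mdx than in wt, and 7 and 3 in mdx/Ripk3mKO against mdx.

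Inhibitors of JAK/STAT signalling were split in direction. Of 15 tested, 5 were higher and 10 lower in mdx against wt (median -0.04), and 8 and 7 in mdx/Ripk3mKO against mdx (median 0.01). Socs1, a feedback inhibitor of JAK kinases, had 112 and 140 (wt), 116 and 95 (mdx) and 123 and 155 (mdx/Ripk3mKO). The log2 difference of Socs1 in mdx/Ripk3mKO against mdx was 0.39 ± 0.17 (limma, adjusted p = 0.41). Socs2 was at 0.16 ± 0.07 there (adjusted p = 0.407), and Socs5 at -0.14 ± 0.07 in mdx/Ripk3mKO against wt (adjusted p = 1).

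Downstream, 25 of 45 interferon-stimulated genes searched for had a row, and the other 20, which include Isg15, Ifit1, Mx1 and Oas2, were not analysed here. In mdx against wt 15 of the 25 were higher and 10 lower (median 0.02), in mdx/Ripk3mKO against mdx 13 and 12 (median 0.02), and in mdx/Ripk3mKO against wt 17 and 8 (median 0.07). Ifi27 had 49 and 56 (wt), 78 and 86 (mdx) and 76 and 57 (mdx/Ripk3mKO), a log2 difference of 0.63 ± 0.20 in mdx against wt (limma, adjusted p = 0.586). Pml, the organiser of nuclear bodies, was at 0.18 ± 0.09 in mdx/Ripk3mKO against wt (adjusted p = 1), and the mitochondrial nucleotide kinase Cmpk2 at 0.68 ± 0.34 in mdx/Ripk3mKO against mdx (adjusted p = 0.467). Per length, the membrane restriction factors Ifitm2 (48.7) and Ifitm3 (20.5) were the most abundant of the 25, and Rsad2, the antiviral enzyme viperin, stood at 0.416.

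Among targets of interferon-gamma and IRF1, 16 of 24 genes had a row, and the smallest p-value was that of the immunity-related GTPase Igtp. Igtp had scaled counts of 84 and 80 (wt), 111 and 104 (mdx) and 56 and 66 (mdx/Ripk3mKO). No 2 groups overlapped, with mdx highest and mdx/Ripk3mKO lowest. All 3 groups lay apart in 7.43% of all genes, and Igtp was picked by its small p. Its log2 difference was -0.81 ± 0.18 in mdx/Ripk3mKO against mdx (limma, adjusted p = 0.0827), 0.39 ± 0.18 in mdx against wt (adjusted p = 0.762) and -0.43 ± 0.18 in mdx/Ripk3mKO against wt (adjusted p = 1). Irgm1 was at -0.62 ± 0.23 (adjusted p = 0.321) and the class I molecule H2-K1 at 0.23 ± 0.10 (adjusted p = 0.39) in mdx/Ripk3mKO against mdx. The order of Igtp thus differed from that of Irf1, in which mdx/Ripk3mKO lay between wt and mdx. Neither gene had a called difference, and a link between them was not tested. Of the 16 genes 8 were higher and 8 lower in mdx/Ripk3mKO than in mdx (median 0.02), and 10 and 6 in mdx than in wt (median 0.03).

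**Figure D4:**
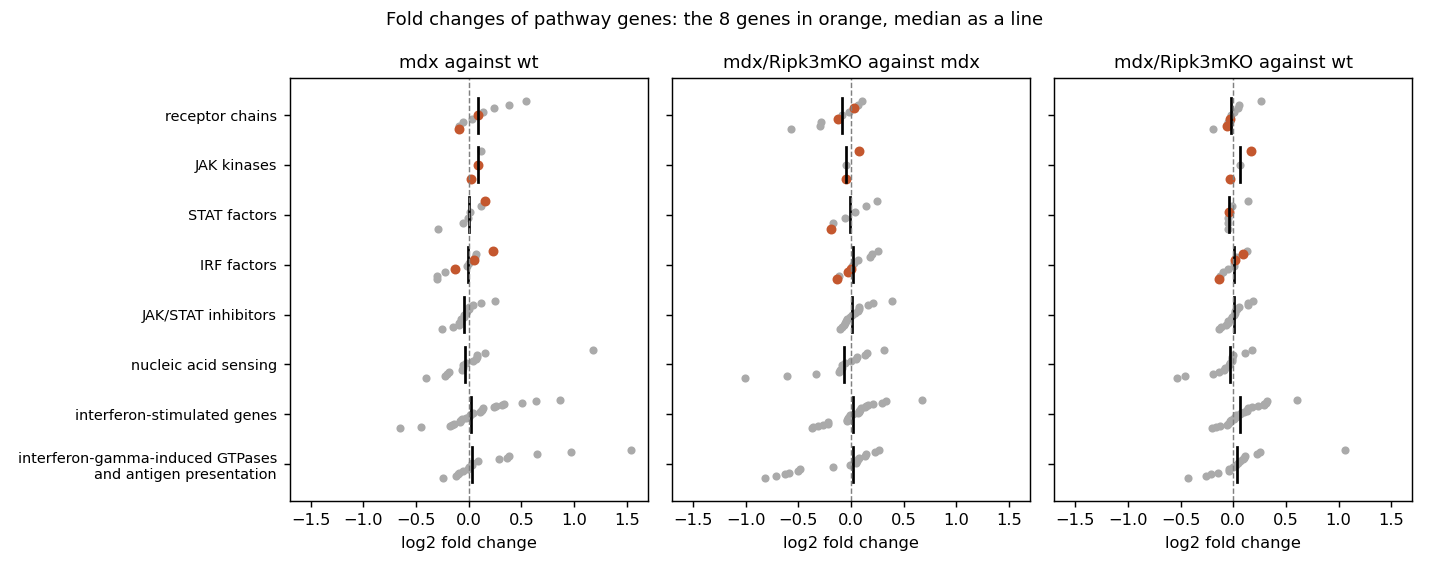
Log2 fold change (horizontal axis) of every tested gene in 8 pathway lists for the 3 comparisons, with the 8 genes in orange, other genes in grey and the list median as a line. List medians lie between -0.09 and 0.09, and no point passed the threshold.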

How the data were processed

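Each value in the deposited table is a whole number that behaves like a read count divided by a library factor and then rounded by the authors, and it was treated as a score. The evidence is in the values, where some whole numbers are skipped or doubled at regular steps. STAR 2.6.1d, featureCounts 1.6.3, Trimmomatic 0.36, DESeq2 1.18.1 and mm10 are listed, without roles, per the submitters' processing notes. Both mdx columns carry the same header and are called library 1 and 2 in column order, as names only. Limma 3.58.1 (R 4.3.3, statmod 1.5.0) was fitted to log2(scaled count + 1) of all 6 libraries, with genotype as the only term, 3 residual degrees of freedom, a variance trend and robust fitting. Adding 1 understates the change of low genes. A gene was tested where 2 or more libraries reached 10 (14077 genes, leaving out 438), and p-values were adjusted over all of them by Benjamini-Hochberg at 0.05. The fit and the divisor estimate were tested on simulated data. In 3 simulated runs of mdx against wt, the fit called 37.3% of 1.25-fold, 75.3% of 1.5-fold and 95.3% of 2-fold changes. The changed genes had a mean of at least 50. Most changes of 1.25-fold were thus missed there, so a gene that is not called may still differ by a small amount.

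The 8 genes and all lists were chosen with earlier results of these data known. Named were the 8 genes and, in each list, up to 3 genes with the smallest p over the comparisons. For each of the 8 genes the most alike gene with a mean of at least 100 was also named, leaving out predicted and clone names, and Ripk3, Pax7 and Myog served as checks. Other genes (such as Tbk1, Ifitm2, Xist) were named for their role or level after values were seen. Alternatives were another pseudocount, 2 other filters, no trend or robust fitting, quantile normalization, a GC and length correction (GENCODE M21), only the 2 groups compared, each library left out, and a replicate block.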

Additional observations from a re-analysis of the deposited data

How the results depend on the processing

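The number of the 8 genes called stayed at 0 in all 3 comparisons under every alternative run, and their 320 recomputed fold changes had a limma adjusted p of at least 0.483. Of these, 306 kept their direction and 14 changed sign. With the GC and length correction Irf9 in mdx/Ripk3mKO against mdx became -0.0139 and Irf3 in mdx/Ripk3mKO against wt -0.0215. With each library left out in turn, the log2 difference in mdx against wt ran from -0.0336 to 0.073 for Jak1 and from -0.00475 to 0.0975 for Irf3. In mdx/Ripk3mKO against mdx it ran from -0.105 to 0.00122 for Jak1, -0.0548 to 0.0025 for Irf3 and -0.0546 to 0.0565 for Irf9. In mdx/Ripk3mKO against wt it ran from -0.114 to 0.0537 for Ifnar1, -0.121 to 0.00305 for Ifnar2, -0.182 to 0.108 for Stat2 and -0.0309 to 0.0714 for Irf3. The cause was not tested. Other values of the 8 genes also moved by over 1.5 times without changing sign, such as those of Ifnar1 and Stat2 in mdx against wt. Of 320 recomputed list medians 18 moved, among them the STAT factors in mdx/Ripk3mKO against mdx, which became -0.138 without mdx/Ripk3mKO library 1.

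Counts over all genes moved more. In mdx against wt the 1 called gene became 103 with only both groups compared and 0 to 103 with a library left out (0 without any 1 wt or mdx library, 103 without either mdx/Ripk3mKO library). In mdx/Ripk3mKO against mdx the 29 called genes became 18 with a minimum of 50, 1 without trend or robust fitting, 8 with the GC and length correction, 2 with only both groups compared and 1 to 278 with a library left out, the 278 being without mdx/Ripk3mKO library 1, which stood apart in Xist. In mdx/Ripk3mKO against wt the 0 called genes became 20 without mdx/Ripk3mKO library 2, in a range of 0 to 20. A group left with 1 library is assumed to vary like the others. A replicate block could be fitted only for mdx/Ripk3mKO against wt, with 1 residual degree of freedom, and called 0 genes and 0 of the 8. There, libraries numbered 1 did not deviate together (r = -0.0115 over 14077 genes). With 2 libraries a group this compares only 1 contrast per group, so it cannot exclude that the numbers mark pairs. Whether wt and mdx/Ripk3mKO share more than a number was not settled. The mdx libraries carry no number to check.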
